A study of Mus musculus with 5 samples.

Results

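The T helper 1 (Th1) axis was followed in CD4 T cells sorted from injured mouse kidneys, from the 2 chains of the IL-12 receptor to the transcription factor T-bet and the cytokine interferon-γ (IFN-γ). It comprised the 9 genes Tbx21, Ifng, Il12rb1, Il12rb2, Stat4, Ifngr1, Ifngr2, Hopx and Runx3, which were chosen by symbol and all found among the 31053 genes counted. The cells came from kidneys of 10-week-old mice after unilateral ischemia-reperfusion injury, in which the blood flow of a kidney is stopped and restored, and their RNA was read by 10x Genomics single-cell 3′ sequencing. The series is about regulatory T cells (Tregs) that carry ST2, the IL-33 receptor encoded by Il1rl1, after this injury. The knockout group, 3 libraries, was Il1rl1fl/fl Foxp3YFP-Cre, in which mice make Cre recombinase from the Foxp3 locus and so delete the loxP-flanked Il1rl1 in Foxp3-expressing cells. The control group, 2 libraries, was Il1rl1fl/fl, in which mice carry the same loxP-flanked alleles and no Cre. The Foxp3YFP-Cre allele occurred in the knockout libraries alone, so its presence and the loss of Il1rl1 cannot be told apart. Whether the libraries stem from different animals is not stated in the labels, so p-values measure the spread between these libraries, which may be technical.

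In a CD4 T cell that meets antigen and IL-12, the heterodimeric IL-12 receptor activates the kinases JAK2 and TYK2 and, through them, STAT4. STAT4 and T-bet together open the Ifng locus, T-bet induces the β2 chain of the IL-12 receptor, and secreted IFN-γ signals back through its own 2-chain receptor to induce more T-bet. RUNX3 works with T-bet at Ifng, and CXCR3 is a chemokine receptor induced by T-bet and used as a surface marker of Th1 cells. Tregs can also express T-bet and CXCR3, and such Tregs are known to act at sites of Th1 inflammation.

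Promoter windows of 250 bases upstream of the annotated start were at hand from RefSeq (GRCm38.p6) for 8 of the 9 members, in 11 windows. The windows of the 3 genes on which the results turn are printed here 5′ to 3′ on the gene's own strand, so that the reader can see what lies before the starts of the cytokine, the inducible receptor chain and the factor that links them. Capitals mark matches, on either strand, to the T-box core TCACAC or to the STAT palindrome TTCNNNGAA. The Ifng window is at chr10:118440796-118441045 on the plus strand, the Il12rb2 window at chr6:67376189-67376438 on the minus strand and the Tbx21 window at chr11:97115332-97115581 on the minus strand.
Ifng: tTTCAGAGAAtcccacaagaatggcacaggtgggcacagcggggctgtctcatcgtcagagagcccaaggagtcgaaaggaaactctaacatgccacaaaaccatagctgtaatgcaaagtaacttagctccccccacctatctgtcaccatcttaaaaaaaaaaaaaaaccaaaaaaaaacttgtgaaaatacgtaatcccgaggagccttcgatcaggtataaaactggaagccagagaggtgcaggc
Il12rb2: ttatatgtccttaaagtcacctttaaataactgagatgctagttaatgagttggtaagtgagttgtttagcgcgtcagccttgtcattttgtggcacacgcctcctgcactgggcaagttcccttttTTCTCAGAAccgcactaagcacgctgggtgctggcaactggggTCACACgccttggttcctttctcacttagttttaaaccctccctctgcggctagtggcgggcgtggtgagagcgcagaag
Tbx21: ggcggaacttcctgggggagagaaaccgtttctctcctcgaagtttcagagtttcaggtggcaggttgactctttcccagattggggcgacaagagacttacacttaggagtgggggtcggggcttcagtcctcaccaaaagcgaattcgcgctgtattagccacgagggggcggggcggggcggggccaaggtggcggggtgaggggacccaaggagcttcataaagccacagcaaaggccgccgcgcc
The STAT palindrome started 249 bases before the Ifng start. In Il12rb2 the STAT palindrome started 123 bases and the T-box core 80 bases before the start, and Tbx21 held neither. The matches do not overlap. The T-box core occurs in 12.3% and the STAT palindrome in 7.02% of all 32851 mouse promoter windows of this length, and the RUNX core TGTGGT in 14%. In the other member windows the only matches to these 3 motifs were 2 RUNX cores in a Runx3 window, 134 and 126 bases before the start. A match is a string of letters and not a measured binding site.

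In GRCm38 the genes lie at chr8:70808449-70821424 (Il12rb1, plus strand), chr6:67291318-67376188 (Il12rb2, minus), chr1:51987148-52107189 (Stat4, plus), chr11:97098071-97115331 (Tbx21, minus), chr4:135120652-135177990 (Runx3, plus), chr5:77086988-77115121 (Hopx, minus), chr10:118441046-118445892 (Ifng, plus), chr10:19591949-19610229 (Ifngr1, plus) and chr16:91547072-91565623 (Ifngr2, plus). All 9 are protein-coding. Annotated genes on the opposite strand overlap Il12rb2 (Serbp1), Stat4 (Gm3940), Hopx (Hopxos) and Runx3 (Gm16224), and genes on the same strand overlap Ifng (Gm49751) and Stat4 (Gm28177). Whether the counting used strand is not given in the sources used here, so reads of such partners cannot be told apart from those of the member.

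The 5 libraries held 40778 cell barcodes, in each as many as the submitters state, and 38417 cells were kept. Control library 1 was sequenced deepest, with a median of 13534 unique molecular identifiers (UMIs, each marking 1 captured RNA molecule) per cell, against 3786 in control library 2 and 4115.5 to 7546 in the knockout libraries. Cells were gated by single genes. A Foxp3 UMI marked 2995 cells, here called Foxp3+ cells. A Cd4 UMI without a Foxp3 UMI marked 26978 cells, here called conventional CD4 cells. A Cxcr3 UMI marked 19298 cells, and UMIs of both Cd8a and Cd8b1 marked 719. The gates overlap: 77.2 to 87.5% of Cxcr3+ cells were conventional CD4 cells and 7.26 to 10.7% were Foxp3+, and 54.4 to 74.6% of the Cd8a+ Cd8b1+ cells also had a Cd4 UMI, although the sort was for live CD45+ TCRβ+ CD4+ cells, with CD25 and CD127 in the panel. A further 6513 cells were in none of them, and 178 barcodes occurred in more than 1 library. A Treg of which no Foxp3 UMI was captured counts as a conventional CD4 cell here. The summed Treg markers Foxp3, Il2ra, Ikzf2 and Ctla4 were at 1844 to 2353 CPM (UMI counts scaled to a common library total) in Foxp3+ cells of the knockout libraries and 2082 to 2731 CPM in those of the control libraries. In conventional CD4 cells they were at 303 to 315 CPM in the knockout libraries, against 213 to 246 CPM in the control libraries, without overlap. Foxp3 set both gates, so by rule it counts in the sums of Foxp3+ cells and cannot count in those of conventional CD4 cells. The 5 T cell markers were at 3078 to 3559 and 3161 to 3730.4 CPM in the same 2 gates. Il1rl1 was at 128, 53.9 and 51.6 CPM in Foxp3+ cells of the knockout libraries, against 74.2 and 54.8 CPM in those of the control libraries. A 3′ tag does not show whether the floxed part was deleted, so this level does not check the genotype.

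Macrophage and monocyte RNA was present in the T cell gates, and it was not even between the groups. The 8 markers of these cells (C1qa, C1qb, C1qc, Adgre1, Cd68, Lyz2, Csf1r and Fcgr1), all 8 detected in every library, summed to 1068, 1176 and 1565 CPM in Foxp3+ cells of knockout libraries 1 to 3, against 569 and 906 CPM in those of control libraries 1 and 2. In conventional CD4 cells they summed to 653, 758 and 1002 CPM in the knockout libraries and 429 and 877 CPM in the control libraries. The groups did not overlap in Foxp3+ cells and overlapped in conventional CD4 cells. For scale, the same 8 genes, among them the gating gene C1qa, summed to 6885 to 10187 CPM in cells with a C1qa UMI and no Cd3 UMI. The 4 B cell markers were at 14.1 to 56.3 CPM in Foxp3+ cells. The 5 natural killer cell markers were Ncr1, Klrb1c, Klre1, Klra8 and Eomes. They were at 6.63 to 17.1 CPM in Foxp3+ cells of the knockout libraries, against 26.8 to 31.8 CPM in those of the control libraries. The CD8 markers Cd8a and Cd8b1 were at 17.9 to 33.8 CPM in the same knockout cells, against 34.4 to 71.0 CPM in the control cells. Both were lower in every knockout library than in either control library. The part of this RNA in the differences below was not tested, but values from gates restricted to cells with a Cd3 UMI and without a UMI of C1qa, Lyz2, Cd79a or Lrp2 (T-restricted gates) are given beside the members they touch most.

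Tregs and conventional CD4 cells of the same kidneys differed in most of the axis. In Foxp3+ cells the cytokine, the factor and the inducible receptor chain were all lower, with log2 folds of -0.99 ± 0.15 (SE) for Ifng, -0.73 ± 0.08 for Tbx21 and -0.91 ± 0.09 for Il12rb2. Runx3 was also lower, whereas both chains of the IFN-γ receptor were higher in Foxp3+ cells. UMIs were summed per library and gate and tested by edgeR's quasi-likelihood test with the library as a term and Benjamini-Hochberg adjustment over all genes (padj, called under 0.05). CPM were scaled by trimmed mean of M-values (TMM) factors within each comparison, so the values of the same cells differ slightly between comparisons. Of the 9 members 7 passed, 2 higher and 5 lower, where 19.9% of the 13949 genes tested passed, 11.6% as higher and 8.25% as lower. The members' median log2 fold was -0.18 beside -0.0046 over all genes.

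On the receptor side, Il12rb2 was at 24.6, 68.5 and 33.1 CPM in Foxp3+ cells of knockout libraries 1 to 3 and 15.9 and 18.1 CPM in those of control libraries 1 and 2, against 50.1, 119 and 43.6 CPM and 35.0 and 40.7 CPM in conventional CD4 cells of the same libraries. Il12rb2 encodes the signalling β2 chain that binds STAT4, and it was lower in Foxp3+ cells in all 5 libraries (edgeR padj = 8.64e-05). Il12rb1, the β1 chain shared with the IL-23 receptor, averaged 31.8 ± 5.34 CPM in Foxp3+ cells and 30.5 ± 4.98 CPM in conventional CD4 cells (SD, n = 5), a log2 fold of 0.09 ± 0.07 that did not pass. Stat4, the transducer of the receptor, averaged 395 ± 50.4 CPM in Foxp3+ cells and 445 ± 47.1 CPM in conventional CD4 cells, with a log2 fold of -0.18 ± 0.05 (edgeR padj = 0.0415). This small difference did not pass when any of 4 libraries was left out, with edgeR padj of 0.115 without control library 1, 0.132 without control library 2, 0.0977 without knockout library 1 and 0.0874 without knockout library 2. It was also lost with cells thinned to 2000 UMIs before gating (log2 fold -0.07, edgeR padj = 0.578), in T-restricted gates (padj = 0.0892) and without the 5% of cells richest in UMIs (padj = 0.0662).

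Among the transcription factors, Tbx21 was at 63.7, 90.0 and 73.5 CPM in Foxp3+ cells of knockout libraries 1 to 3 and 49.3 and 51.4 CPM in those of control libraries 1 and 2, against 103, 129 and 102 CPM and 104 and 91.0 CPM in conventional CD4 cells of the same libraries. Tbx21, which encodes T-bet, was lower in Foxp3+ cells in every library (edgeR padj = 0.000127). Runx3 averaged 139 ± 20.9 CPM in Foxp3+ cells and 172 ± 16.2 CPM in conventional CD4 cells, lower with a log2 fold of -0.33 ± 0.04 (edgeR padj = 0.000432). Hopx, a small homeodomain protein found in differentiated Th1 cells that does not bind DNA itself, was at 181 ± 30.7 CPM in Foxp3+ cells and 177 ± 26.5 CPM in conventional CD4 cells. Its log2 fold of 0.03 ± 0.04 did not pass. Ifng was at 15.8, 83.9 and 26.5 CPM in Foxp3+ cells of knockout libraries 1 to 3 and 12.1 and 15.5 CPM in those of control libraries 1 and 2, against 41.6, 109.9 and 44.0 CPM and 30.5 and 46.4 CPM in conventional CD4 cells of the same libraries. Ifng was lower in Foxp3+ cells in 5 of 5 libraries, and its highest values in both gates were those of knockout library 2 (edgeR padj = 0.00119).

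The IFN-γ receptor went the other way. Ifngr2 was at 38.5, 34.3 and 49.8 CPM in Foxp3+ cells of knockout libraries 1 to 3 and 41.4 and 46.5 CPM in those of control libraries 1 and 2, against 26.9, 22.8 and 32.7 CPM and 23.3 and 40.1 CPM in conventional CD4 cells of the same libraries. Ifngr2 encodes the signal-transducing chain, which limits how strongly T cells answer to IFN-γ and which differentiated Th1 cells are known to lose. It was higher in Foxp3+ cells in all 5 libraries, by a log2 fold of 0.57 ± 0.08 (edgeR padj = 0.000714), and by 0.95 in T-restricted gates. Ifngr2 is also well expressed by macrophages, whose 8 markers were higher in Foxp3+ than in conventional CD4 cells in each library. Ifngr1, the ligand-binding chain, averaged 668 ± 86.4 CPM in Foxp3+ cells and 563 ± 130.3 CPM in conventional CD4 cells, a log2 fold of 0.27 ± 0.07 (edgeR padj = 0.02). It did not pass without control library 1 (log2 fold 0.20, edgeR padj = 0.0698), control library 2 (0.24, 0.0781) or knockout library 3 (0.25, 0.0611). Foxp3+ cells had more UMIs per cell, with medians of 12019, 7202 and 7053 in the knockout libraries and 16664 and 5429 in the control libraries, against 8143.5, 4888 and 4671 and 14355 and 4562 in conventional CD4 cells. A gate on 1 UMI favours deep cells.

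**Figure D1:**
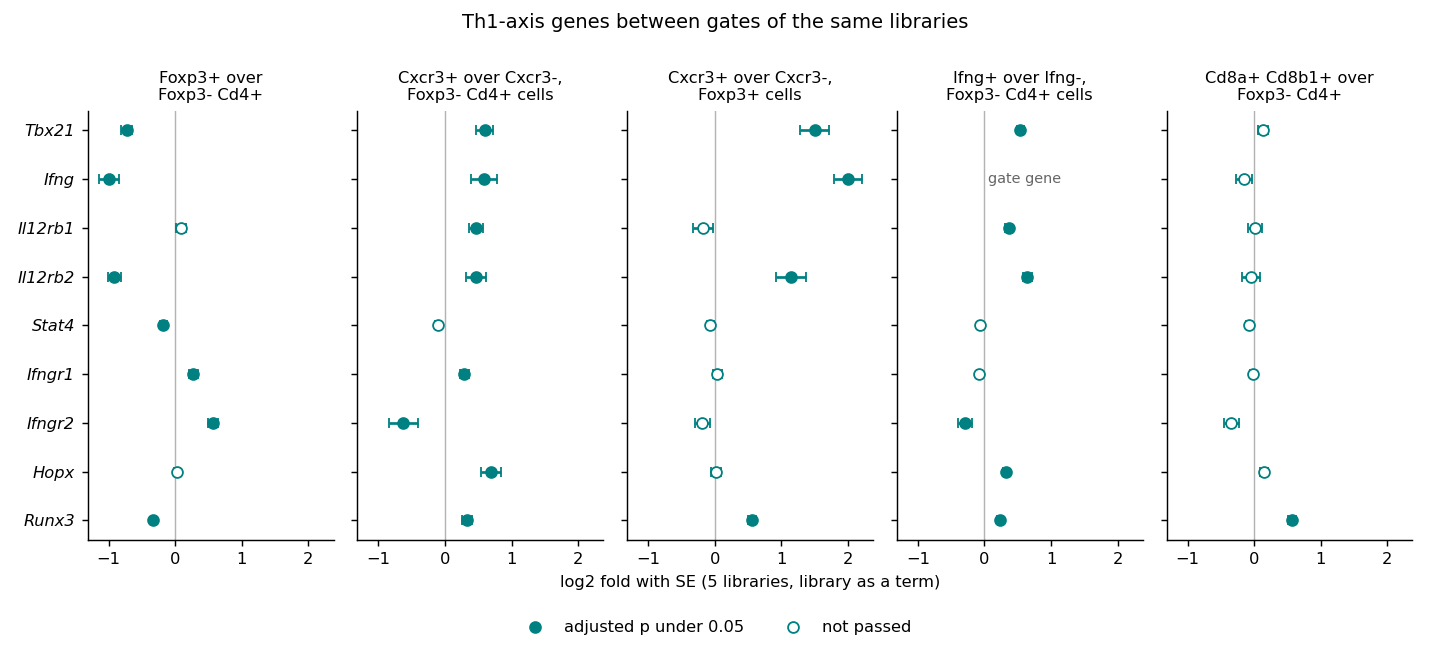
Log2 fold (with SE) of each Th1-axis gene between gates of the same 5 libraries, named above each panel. Filled points passed in edgeR (adjusted p under 0.05) and open points did not. Tbx21, Ifng and Il12rb2 lie left of 0 in Foxp3+ against conventional CD4 cells, where Ifngr2 lies right of 0, and right of 0 in both Cxcr3 splits.

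Knockout against control asked whether the axis differed when Tregs were made to lose Il1rl1. In Foxp3+ cells the T-bet, IL-12 receptor β2 and IFN-γ transcripts had higher levels in each of the 3 knockout libraries than in either control library. No gene passed, however, among the 11519 tested by edgeR's quasi-likelihood test, and the 2 most variable members, Ifng and Il12rb2, took much of their difference from knockout library 2. By the unadjusted p under 0.05, 752 genes (6.53%) were counted, and DESeq2 called 51 genes, no member among them. With 1 library left out, edgeR called 33 genes without control library 2, 8 without knockout library 1 and 1 without control library 1, again no member. The groups' libraries did not overlap for 5 of the 9 members, all higher in the knockout libraries, where 20.6% of all genes did not overlap in either direction and 10.6% with the knockout higher. The median log2 fold of the 9 members was 0.27, and that of all genes -0.00081. In a whole gate, fewer cells that express a gene and less RNA per cell cannot be told apart.

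Tbx21 was at 65.1, 92.0 and 74.7 CPM in Foxp3+ cells of knockout libraries 1 to 3, against 50.2 and 52.4 CPM in those of control libraries 1 and 2. The groups did not overlap, and the controls lay close together. The log2 fold was 0.60 ± 0.15 (edgeR unadjusted p = 0.00373, padj = 0.472). Without knockout library 2 it was 0.44. Il12rb2 was at 25.1, 70.0 and 33.7 CPM in the knockout libraries, against 16.2 and 18.5 CPM in the control libraries. Knockout library 2 stood highest, but the other two were still above both controls. Its log2 fold was 1.35 ± 0.40 (edgeR padj = 0.563), 0.76 without knockout library 2 and 2.34 with cells thinned to 2000 UMIs before gating. Without the filter on low counts 452 of 19481 genes passed in edgeR, where none had with it. Tbx21, Ifng and Il12rb2 were among them (edgeR padj = 0.000311, 1.13e-18 and 1.66e-12), and under the other 12 alternatives none of the 3 passed.

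Ifng was at 16.2, 85.7 and 26.9 CPM in Foxp3+ cells of the knockout libraries, against 12.3 and 15.8 CPM in those of the control libraries. Only knockout library 2 was far above the rest, and the lowest knockout library exceeded the higher control by less than 1 CPM. The log2 fold of 1.70 ± 0.63 (edgeR padj = 0.698) became 0.61 without knockout library 2 and 1.03 without the 5% of cells richest in UMIs. Stat4 was at 453, 426 and 437 CPM in the knockout libraries, against 368 and 330.4 CPM in the control libraries, a log2 fold of 0.33 ± 0.10 (edgeR padj = 0.596) with knockout libraries close together and no overlap. Ifngr1 was at 706, 697 and 789 CPM in the knockout libraries, against 546 and 669 CPM in the control libraries, without overlap but with control library 2 near the knockout range (log2 fold 0.27 ± 0.13). The other 4 members overlapped between the groups. Runx3 had a log2 fold of 0.27 ± 0.13, Il12rb1 0.20 ± 0.18, Hopx -0.04 ± 0.18 and Ifngr2 -0.11 ± 0.16. The summed macrophage and monocyte markers given above also did not overlap between the groups in these cells. In T-restricted gates the log2 folds were 0.56 for Tbx21, 1.15 for Ifng, 1.49 for Il12rb2 and 0.39 for Stat4.

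In conventional CD4 cells the IFN-γ receptor chain Ifngr1 had the smallest p of the members. Ifngr1 was at 674, 641 and 599 CPM in the knockout libraries, against 366 and 483 CPM in the control libraries. Every knockout library was above both controls, with a log2 fold of 0.59 ± 0.14 that did not pass in edgeR (unadjusted p = 0.00537, padj = 0.962) and passed in DESeq2 (padj = 0.028) and in edgeR without the filter on low counts (padj = 0.0395). Without that filter 191 of 22669 genes passed. The summed Treg markers, given above, were also higher in every knockout library in this gate, and their part in the values was not tested. Il12rb1 was at 36.0, 33.8 and 28.7 CPM in the knockout libraries, against 24.7 and 26.2 CPM in the control libraries, again with no overlap (log2 fold 0.37 ± 0.13, edgeR padj = 0.995). Il12rb2 was at 49.3, 117 and 42.7 CPM in the knockout libraries, against 34.7 and 39.8 CPM in the control libraries. Knockout library 2 alone was far above the others, and the log2 fold was 0.91 ± 0.43 with it and 0.31 without it.

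Ifng in conventional CD4 cells was at 40.9, 108 and 43.1 CPM in the knockout libraries, against 30.2 and 45.3 CPM in the control libraries. The groups overlapped, and without knockout library 2 the log2 fold of 0.77 ± 0.45 became 0.16. Tbx21 was at 102, 126 and 100.2 CPM in the knockout libraries, against 103 and 89.0 CPM in the control libraries, which overlapped as well (log2 fold 0.19 ± 0.13). Stat4, Runx3, Hopx and Ifngr2 overlapped between the groups, with log2 folds of 0.10, 0.14, -0.01 and -0.21. Of the 13959 genes tested none passed in edgeR, 685 (4.91%) had an unadjusted p under 0.05 and DESeq2 called 57. The 3 members without overlap, all higher in the knockout libraries, stand beside 17% of all genes in either direction and 7.79% with the knockout higher.

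**Figure D2:**
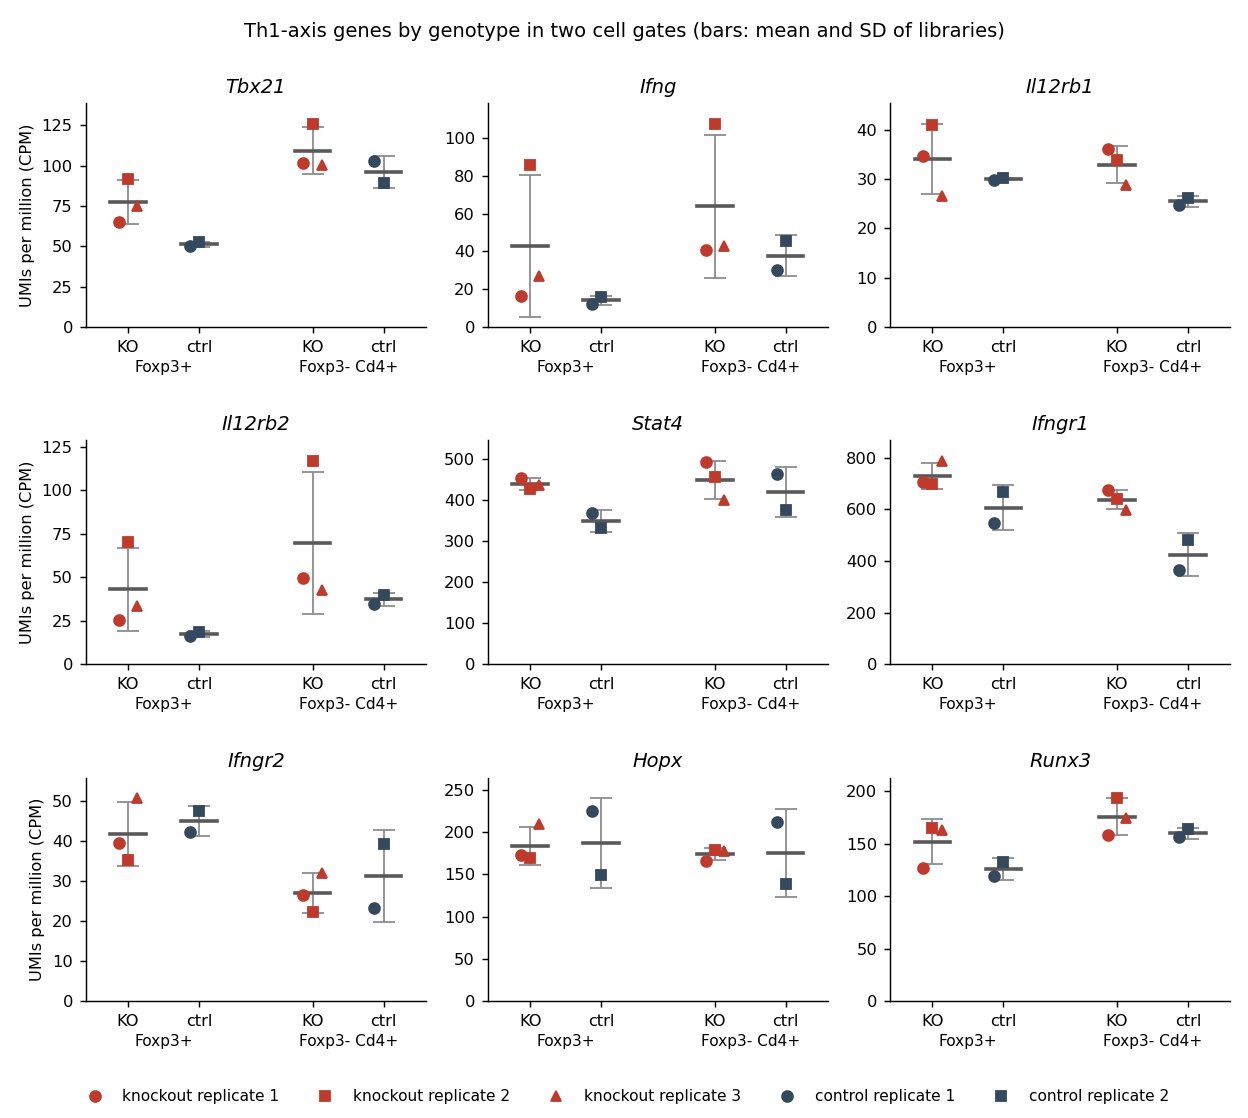
CPM of each Th1-axis gene in Foxp3+ and conventional CD4 (Foxp3- Cd4+) cells of 3 knockout (KO) and 2 control (ctrl) libraries; points are libraries, and bars show the mean and SD. In Foxp3+ cells Tbx21, Ifng, Il12rb2, Stat4 and Ifngr1 do not overlap between the groups, and knockout replicate 2 is highest for Tbx21, Ifng and Il12rb2 in both gates.

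Whether the genotype difference was larger in Foxp3+ than in conventional CD4 cells was tested as an interaction, with the library as a term. Of 13949 genes 7 passed (0.0502%), and DESeq2 called 21. With 1 library left out edgeR called 39 without control library 2, 32 without knockout library 1, and 2 without knockout library 2 or 3. No member passed in edgeR with all 5 libraries and the filter on low counts. Without that filter 297 of 22961 genes passed, among them Tbx21 (difference 0.42, edgeR padj = 0.00342), Ifng (0.72, 2.23e-05) and Ifngr1 (-0.33, 0.00201). With it, Tbx21 came nearest, with a difference between the 2 log2 folds of 0.41 ± 0.10 (unadjusted p = 0.00173, edgeR padj = 0.287). For Ifng the difference was 0.71 ± 0.23 (edgeR padj = 0.554), and it passed when knockout library 1 was left out (difference 0.94, edgeR padj = 0.0317). Ifngr1 had the opposite sign, -0.34 ± 0.10 (edgeR padj = 0.436), its knockout excess being smaller in Foxp3+ cells. Il12rb2 and Stat4 had differences of 0.38 ± 0.15 and 0.22 ± 0.09.

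The wider sets of cells hold the conventional CD4 cells as well, and Ifngr1 had higher levels there in each knockout library than in either control library. Over all retained cells Ifngr1 was at 669, 628 and 599.8 CPM in the knockout libraries, against 389 and 504 CPM in the control libraries (log2 fold 0.50 ± 0.14), and in Cxcr3+ cells at 715, 674 and 635 CPM, against 419 and 544 CPM (log2 fold 0.49 ± 0.14). The other members without overlap were Il12rb1 and Il12rb2 over all cells and Il12rb1 in Cxcr3+ cells. In Cd8a+ Cd8b1+ cells, of which there were 63 to 167 in the knockout libraries and 90 and 329 in the control libraries, Ifngr1 had a log2 fold of 0.44 ± 0.17. Tbx21 was at 119, 116 and 103 CPM in those of the knockout libraries, against 126 and 127 CPM in those of the control libraries, the only member with lower values in every knockout library (log2 fold -0.16 ± 0.15). The members without overlap there were Tbx21, Il12rb1 and Ifngr1. No gene passed in edgeR in any of these 3 sets. The unadjusted counts were 898 genes (5.89%) over all cells, 597 (4.31%) in Cxcr3+ cells and 330 (3.66%) in Cd8a+ Cd8b1+ cells, and DESeq2 called 116, 39 and 3. Members without overlap numbered 3 over all cells, 2 in Cxcr3+ cells and 3 in Cd8a+ Cd8b1+ cells, where 18.7%, 15.9% and 15.4% of all genes did not overlap in either direction, and 9.18%, 7.9% and 7.82% with the knockout higher, in the same 3 sets.

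**Figure D3:**
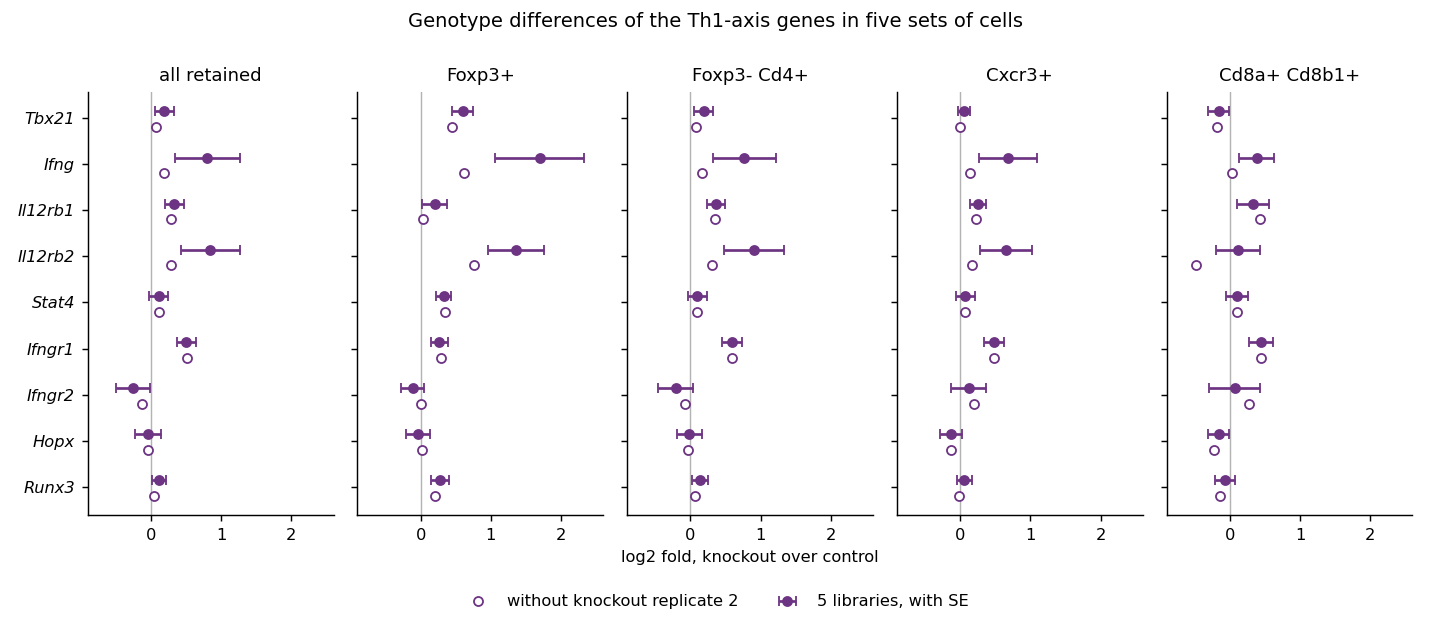
Log2 fold, knockout over control, of each Th1-axis gene in 5 sets of cells. Filled points use all 5 libraries (bars are SE) and open points leave out knockout replicate 2; in Foxp3+ cells Ifng moves to 0.61 and Il12rb2 to 0.76 without it.

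Counted per cell, the same transcripts were found in more Foxp3+ cells of the knockout libraries. For this count each cell was thinned to 2000 UMIs, since the libraries differ in depth. The gates were set before thinning, so which cells counted as Foxp3+ still depended on depth. Tbx21 was then found in 7.97, 12.5 and 11.6% of Foxp3+ cells of knockout libraries 1 to 3, against 6.25 and 6.78% in control libraries 1 and 2. Il12rb2 was found in 4.32, 9.01 and 4.93% of Foxp3+ cells in the knockout libraries, against 1.88 and 2.20% in the control libraries. Ifng was found in 3.32, 6.63 and 4.06% in the knockout libraries, against 2.00 and 2.20% in the control libraries. None of the 3 overlapped between the groups at 2000 UMIs per cell. An exact two-sided permutation test of 3 against 2 libraries gave p = 0.2 for each, which is the smallest it can give, so this design cannot reach 0.05. The 95% exact binomial intervals, which cover counting error only, ran from 1.60 to 6.02% for Ifng in knockout library 1 and from 1.15 to 3.23% in control library 1, and overlapped. Without thinning the Ifng shares were 15.9, 22.7 and 16.4% in the knockout libraries and 15.0 and 7.97% in the control libraries. The lack of overlap depended on the setting. With all deposited barcodes thinned to 2000 UMIs Ifng and Il12rb2 overlapped between the groups, and at 1000 UMIs per cell Ifng and Tbx21 did. The thinning left out 14, 64 and 38 Foxp3+ cells of the knockout libraries and 7 and 81 of the control libraries that had fewer than 2000 UMIs.

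Among conventional CD4 cells at 2000 UMIs, Tbx21 was found in 18.7, 21.0 and 17.3% of cells of the knockout libraries, against 16.7 and 14.6% in the control libraries. Il12rb2 was found in 8.27, 17.7 and 7.17% in the knockout libraries, against 5.47 and 5.21% in the control libraries, and Ifng in 6.66, 11.1 and 5.82%, against 5.02 and 5.99%. Tbx21 and Il12rb2 did not overlap between the groups and Ifng did. Without thinning each of these genes overlapped. Tbx21 also overlapped with all deposited barcodes and at 1000 UMIs per cell, where Ifng did not. At 2000 UMIs Ifngr1 was found in 60.2, 60.9 and 58.0% of these cells in the knockout libraries, against 42.1 and 51.1% in the control libraries. This was again without overlap and at the smallest possible exact permutation p of 0.2, though Ifngr1 overlapped without thinning. As background at the same depth, no Ifng UMI was found in 57 cells over all libraries with a B cell marker and no Cd3 UMI, which allows a share of up to 5.26%. Among 146 cells with a C1qa UMI and no Cd3 UMI, 1 had one. Il12rb2 was found in 2.05% of these C1qa+ cells and in none of the 57 B gate cells, and Tbx21 in 4.11% and 3.51%. The Il12rb2 shares in control Foxp3+ cells were thus at this background level, and the Tbx21 shares in control Foxp3+ cells above it by less than 4 percentage points. Ifngr2 was found in 34.2% of the C1qa+ cells.

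Few cells held the Ifng and Il12rb2 UMIs. At 2000 UMIs the 1% of cells with the most Ifng held 34.5, 36.9 and 33.7% of its UMIs in knockout libraries 1 to 3 and 32.3 and 39.6% in control libraries 1 and 2. For Il12rb2 this share was 26.3, 16.4 and 27.4% in the knockout libraries and 32.3 and 38.8% in the control libraries, and for Tbx21 12.2, 12.4 and 13.0% and 13.9 and 15.3%. The share also reflects how many cells hold a gene at all, which was 4.48 to 10.2% of cells over the libraries for Ifng, 5.17 to 16.4% for Il12rb2 and 13.7 to 19.8% for Tbx21. Of the 412 cells with Ifng in control library 1, 368 had 1 UMI. Cells with at least 5 Ifng UMIs numbered 2, 32 and 3 in the knockout libraries and 2 and 8 in the control libraries. Knockout library 2 thus held most of them, at 0.368% of its cells, and also the single highest cell, with 50 Ifng UMIs. Of all Ifng UMIs before thinning, conventional CD4 cells held 88.2, 80.4 and 78.5% in the knockout libraries and 89.6 and 83.8% in the control libraries. Foxp3+ cells held 5.62, 12.3 and 7.57% in the knockout libraries and 5.29 and 4.31% in the control libraries, the highest share again in knockout library 2.

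**Figure D4:**
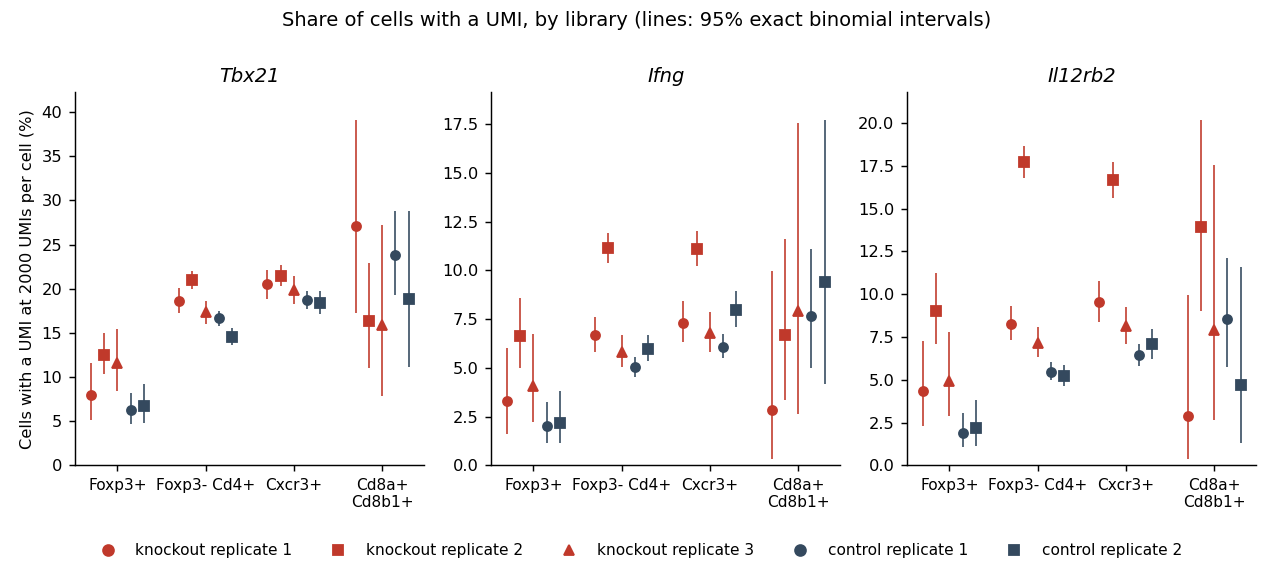
Percent of cells with at least 1 UMI of Tbx21, Ifng or Il12rb2 in 4 gates after each cell was thinned to 2000 UMIs; each point is a library and lines are 95% exact binomial intervals. In Foxp3+ cells all 3 knockout points lie above both control points for each gene, and knockout replicate 2 is highest.

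Cxcr3, the chemokine receptor that T-bet induces, divided the cells of both gates along much of the axis. Several of these log2 folds were smaller when cells were thinned to 2000 UMIs before gating, as given below. Among Foxp3+ cells, Cxcr3+ cells had more Tbx21, Ifng, Il12rb2 and Runx3 than Cxcr3- cells of the same libraries. Among conventional CD4 cells, 7 members were higher in Cxcr3+ cells and 1, Ifngr2, was lower. The 4 of 9 members called in Foxp3+ cells, all higher, stand beside 17.6% of 11042 genes (9.25% higher and 8.31% lower), and the 8 of 9 in conventional CD4 cells beside 39.7% of 13508 genes (20.8% higher and 18.9% lower). In Foxp3+ cells 1939 genes passed with all libraries and 1271 without control library 2. Cxcr3+ cells had more UMIs per cell, with medians of 18819, 10233 and 11397 in knockout and 24041 and 8390.5 in control Foxp3+ cells, against 6056.5, 4077.5 and 3871 and 11806 and 3944 in Cxcr3- ones. Ifng, Tbx21 and the rest are given in CPM, which takes out the total but not the choice of deep cells by the gate. Macrophage and monocyte markers summed to 1293, 1382 and 1849.5 CPM in knockout and 699 and 1126 CPM in control Foxp3+ Cxcr3+ cells, against 229, 388 and 705 CPM and 258 and 533 CPM in Foxp3+ Cxcr3- cells, and the part of this RNA was not tested.

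Tbx21 was at 77.6, 99.2 and 84.9 CPM in Foxp3+ Cxcr3+ cells of knockout libraries 1 to 3 and 66.1 and 65.8 CPM in those of control libraries 1 and 2, against 17.3, 61.6 and 41.0 CPM and 11.1 and 27.7 CPM in Foxp3+ Cxcr3- cells of the same libraries. All 5 libraries had more Tbx21 in Cxcr3+ cells, a log2 fold of 1.50 ± 0.22 (edgeR padj = 0.000685). Ifng was at 18.0, 102 and 30.4 CPM in Foxp3+ Cxcr3+ cells of knockout libraries 1 to 3 and 16.1 and 21.7 CPM in those of control libraries 1 and 2, against 9.10, 18.8 and 15.2 CPM and 3.06 and 5.09 CPM in Foxp3+ Cxcr3- cells of the same libraries. Ifng was higher in Cxcr3+ cells of each library by a log2 fold of 2.00 ± 0.21 (edgeR padj = 6.27e-05). Il12rb2 was higher in 4 of 5 libraries, by 1.15 ± 0.22 (edgeR padj = 0.0042), and Runx3 in 5 of 5, by 0.56 ± 0.06 (edgeR padj = 8.58e-05). Stat4, Il12rb1, Hopx, Ifngr1 and Ifngr2 did not pass. When all cells were thinned to 2000 UMIs before gating, Tbx21 (log2 fold 0.48, edgeR padj = 0.566), Ifng (1.15, 0.499) and Runx3 (0.54, 0.118) no longer passed and Ifngr1 did (0.48, 0.00066). Fewer cells then had a Cxcr3 or Foxp3 UMI. In T-restricted gates Ifngr2 was lower in Cxcr3+ cells (-1.10, edgeR padj = 0.000215), where its log2 fold was -0.18 without the restriction, and Ifngr1 was higher (0.23, edgeR padj = 0.0111). Both also passed without the 5% of cells richest in UMIs (Ifngr2 -0.73, edgeR padj = 0.00254, and Ifngr1 0.29, 0.0115).

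Among conventional CD4 cells, Tbx21 was at 110.0, 125 and 109 CPM in Cxcr3+ cells of knockout libraries 1 to 3 and 114 and 108 CPM in those of control libraries 1 and 2, against 70.4, 127 and 78.3 CPM and 56.2 and 59.2 CPM in Cxcr3- cells of the same libraries. In knockout library 2 the 2 values were about equal, and in the other 4 libraries Cxcr3+ cells were higher (log2 fold 0.60 ± 0.13, edgeR padj = 0.00743). Hopx had the largest log2 fold of the members, 0.69 ± 0.15 (edgeR padj = 0.00741), and Runx3 (0.33 ± 0.07), Il12rb1 (0.47 ± 0.11) and Ifngr1 (0.29 ± 0.07) also passed. Ifng had 0.59 ± 0.19 (edgeR padj = 0.0386) and Il12rb2 0.47 ± 0.15 (edgeR padj = 0.037), each higher in 4 of 5 libraries. Both lost their call in edgeR when 1 library was left out. For Ifng the log2 fold and padj were 0.32 and 0.0508 without control library 1, 0.66 and 0.0608 without control library 2, 0.56 and 0.101 without knockout library 1, and 0.61 and 0.068 without knockout library 3. For Il12rb2 they were 0.31 and 0.13, 0.41 and 0.11, 0.41 and 0.111, and 0.52 and 0.0505 without the same libraries in turn. In DESeq2 Ifng did not pass (padj = 0.0673). Thinned before gating, Ifng (0.17), Il12rb1 (0.15) and Il12rb2 (0.07) did not pass.

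Ifngr2 was at 23.0, 22.8 and 32.1 CPM in Cxcr3+ conventional CD4 cells of knockout libraries 1 to 3 and 16.6 and 31.0 CPM in those of control libraries 1 and 2, against 37.8, 20.9 and 31.8 CPM and 48.9 and 51.6 CPM in Cxcr3- ones of the same libraries. Knockout libraries 2 and 3 had about equal values in both sets, and the other 3 libraries had less in Cxcr3+ cells. The log2 fold was -0.62 ± 0.22 (edgeR padj = 0.0482), and -2.38 in T-restricted gates. Ifngr2 lost its call without control library 1 (-0.35, edgeR padj = 0.077), control library 2 (-0.58, 0.133) or knockout library 1 (-0.59, 0.121), with all deposited barcodes (edgeR padj = 0.0503) and in DESeq2 (padj = 0.128). Stat4 had a log2 fold of -0.11 ± 0.04 and passed as lower in Cxcr3+ cells without control library 1 alone (edgeR padj = 0.038). The difference of the Cxcr3 contrast between Foxp3+ and conventional CD4 cells was tested directly, a test added after the data were seen. Of 12742 genes 329 (2.58%) passed, and no member. Without the filter on low counts 1090 of 22961 genes passed, 7 members among them. The members' edgeR padj were 1.19e-11 for Ifng, 3.75e-10 for Tbx21, 2.24e-09 for Hopx, 0.00049 for Il12rb2, 0.000867 for Il12rb1, 0.0244 for Ifngr2 and 0.0456 for Ifngr1. In T-restricted gates Ifngr2 passed (difference 1.28, edgeR padj = 0.0279). With all cells and the filter, the count was 53 without control library 2, 64 without knockout library 1 and 99 without knockout library 3. For Ifng the difference was 1.46 ± 0.39 (edgeR padj = 0.0627, DESeq2 padj = 0.0222), for Tbx21 0.93 ± 0.30 (edgeR padj = 0.113) and for Hopx -0.66 ± 0.19 (edgeR padj = 0.0862, DESeq2 padj = 0.0305). The difference of the 3 genes passed in edgeR when 1 library was left out, as 1.67 for Ifng without control library 1 (padj = 0.00976), and as 1.12 for Tbx21 (padj = 0.0363) and -0.83 for Hopx (padj = 0.0436) without knockout library 2.

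**Figure D5:**
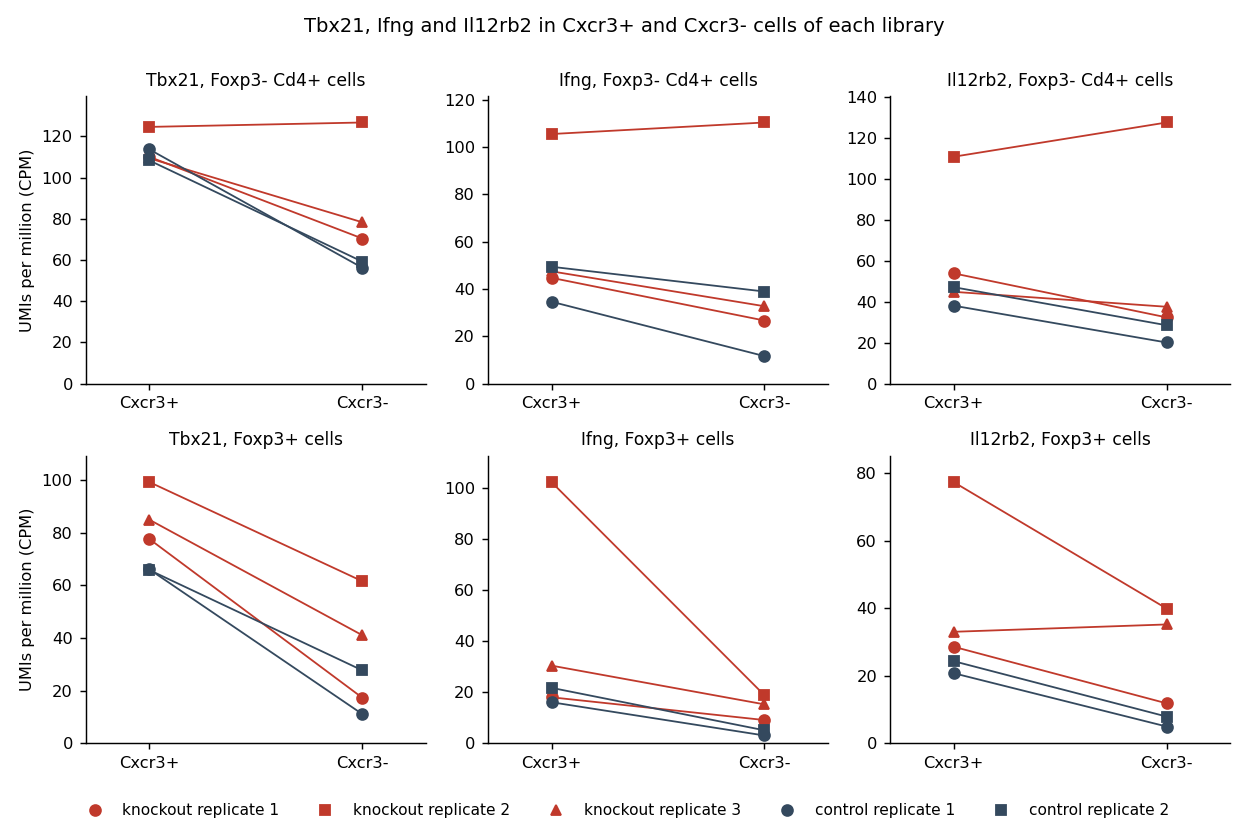
CPM of Tbx21, Ifng and Il12rb2 in Cxcr3+ and Cxcr3- cells, with a line joining the 2 values of each library, for conventional CD4 (Foxp3- Cd4+) cells above and Foxp3+ cells below. In Foxp3+ cells every line for Tbx21 and Ifng falls from left to right, and knockout replicate 2 lies highest.

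Cells with UMIs of both Cd8a and Cd8b1 differed from conventional CD4 cells most clearly in Runx3. A Foxp3 UMI was also found in 7 of 70, 28 of 167 and 13 of 63 such cells of knockout libraries 1 to 3. In control libraries 1 and 2 it was found in 50 of 329 and 17 of 90. Conventional CD4 cells lack one by rule, and the part of these Foxp3+ cells in the differences was not tested. Runx3, which silences Cd4 in the CD8 lineage, was the 1 member of 9 that passed, where 4.73% of 13429 genes did (2.11% higher and 2.61% lower). Runx3 was at 219, 270.2 and 243 CPM in Cd8a+ Cd8b1+ cells of knockout libraries 1 to 3 and 255 and 261 CPM in those of control libraries 1 and 2, against 160.0, 196 and 176 CPM and 154 and 165 CPM in the other conventional CD4 cells of the same libraries. It was higher in all 5 libraries, by a log2 fold of 0.57 ± 0.06 (edgeR padj = 1.41e-06). Tbx21 averaged 115 ± 9.85 CPM in Cd8a+ Cd8b1+ cells and 105 ± 14.2 CPM in conventional CD4 cells (log2 fold 0.14 ± 0.08). Ifng averaged 43.7 ± 12.9 CPM and 54.3 ± 31.8 CPM in the same 2 sets (log2 fold -0.15 ± 0.13). Without control library 1, which holds 329 of the 719 cells, Ifng (-0.44, edgeR padj = 0.0221) and Il12rb2 (-0.40, edgeR padj = 0.039) passed as lower in Cd8a+ Cd8b1+ cells. With the 5% of cells richest in UMIs left out of each library, Ifngr2 (log2 fold -1.0, against -0.34 with them) and Hopx (0.22, against 0.15) passed too. Doublets may be among such cells, and none were removed otherwise. Median UMIs per cell were 14061, 8217 and 8690 in Cd8a+ Cd8b1+ cells of the knockout libraries and 24330 and 7060 in those of the control libraries.

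Conventional CD4 cells with an Ifng UMI were compared with those without one, a contrast added after the data were seen. Of the other 8 members, 5 were higher and 1 lower in Ifng+ cells, where 29% of 13629 genes passed, 16.6% as higher and 12.3% as lower. Tbx21 was at 126, 159.7 and 120.1 CPM in Ifng+ cells of knockout libraries 1 to 3 and 133 and 134 CPM in those of control libraries 1 and 2, against 92.2, 111 and 94.5 CPM and 88.9 and 78.6 CPM in Ifng- cells of the same libraries. Tbx21 was higher in all 5 libraries by a log2 fold of 0.54 ± 0.05 (edgeR padj = 4.76e-05). Il12rb2 was higher by 0.64 ± 0.07 (edgeR padj = 0.000103), Il12rb1 by 0.36 ± 0.06, Hopx by 0.32 ± 0.04 and Runx3 by 0.23 ± 0.04. Runx3 lost its call with cells thinned to 2000 UMIs (0.26, edgeR padj = 0.0501). Stat4 (-0.07 ± 0.03) and Ifngr1 (-0.08 ± 0.04) did not pass, though Ifngr1 did without the filter on low counts (edgeR padj = 0.0422). Ifngr2 was lower, with a log2 fold of -0.29 ± 0.10 (edgeR padj = 0.0459) and of -1.86 in T-restricted gates. It did not pass without control library 1 (-0.15, edgeR padj = 0.209), control library 2 (-0.25, 0.147) or knockout library 3 (-0.32, 0.0722). Ifng+ cells had median UMIs of 10440, 6264 and 7596 in the knockout and 17700 and 6872 in the control libraries, against 7703, 4569.5 and 4444 and 13360 and 4321 for Ifng- cells.

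The genes around the axis were read as 5 lists. In knockout against control none of their genes passed in edgeR in any of the 5 sets of cells. Of the 19 Th1 effector genes, 17 had a positive log2 fold in Foxp3+ cells, where 49.8% of all genes did, with a median of 0.35 (all genes -0.00081). An unadjusted p under 0.05 was found for 10, beside 6.53% of all genes, and 10 had no overlap between the groups, beside 20.6%. In conventional CD4 cells 16 of 19 were positive (50.4% of all genes), with a median of 0.31 (all genes 0.0012). Cxcr6, a chemokine receptor of tissue Th1 cells, averaged 167 ± 19.8 CPM in knockout and 111 ± 1.78 CPM in control Foxp3+ cells (SD, n = 3 and 2; log2 fold 0.59 ± 0.12, edgeR padj = 0.417). Zeb2, a repressor that acts with T-bet in effector cells and is abundant in macrophages, had a log2 fold of 0.59 ± 0.11 in Foxp3+ cells and 0.08 in T-restricted ones. The lowest p values among Th1 effector genes in conventional CD4 cells were those of Fasl (0.54 ± 0.14), a death ligand, and Bhlhe40 (0.74 ± 0.20), a factor that supports IFN-γ by limiting IL-10.

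In the receptor list the IL-18 receptor, which acts with IL-12 on Th1 cells, had the highest log2 folds in both gates. Il18r1, its ligand-binding chain, averaged 355 ± 129 CPM in knockout and 191 ± 38.9 CPM in control Foxp3+ cells (log2 fold 0.89 ± 0.28, edgeR padj = 0.599), and Il18rap, its signalling chain, had a log2 fold of 0.85 ± 0.35. In conventional CD4 cells Il18r1 had 1.09 ± 0.37 (0.71 without knockout library 2), and Il6st, the gp130 chain of the IL-27 receptor, -0.49 ± 0.11. Over the whole list of 10 the median was 0.094 in Foxp3+ and 0.021 in conventional CD4 cells. The 14 genes of IFN-γ signalling had medians of 0.11 in Foxp3+ and 0.084 in conventional CD4 cells. Cd274, the IFN-γ target that encodes PD-L1, had 0.43 ± 0.16 and Socs1, a brake on JAK signalling, 0.46 ± 0.17 in Foxp3+ cells. Among the transcription factors, whose medians were -0.0011 in Foxp3+ and 0.059 in conventional CD4 cells, Eomes had -1.90 ± 0.42 and Runx2 0.74 ± 0.17 in Foxp3+ cells, and Tcf7, a factor of naive and memory T cells, -0.62 ± 0.14 in conventional CD4 cells. The natural killer and CD8 markers given above, of cells that also express Eomes, were lower in the same knockout Foxp3+ cells. Eomes is itself among those natural killer markers, so their sum is not independent of the Eomes value. The part of such cells in the Eomes value was not tested. Of the 7 ligands only 3 to 4 had enough counts to be tested in these gates. Il12b, the p40 subunit of IL-12, was at 0, 0.0452 and 0 CPM in knockout and 0.0161 and 0 CPM in control conventional CD4 cells.

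Between Foxp3+ and conventional CD4 cells, the effector list split. Of its 19 genes 9 were lower in Foxp3+ cells in edgeR, beside 8.25% of all genes, among them Cxcr6 (-1.07), Fasl (-1.01), Il2 (-1.02), Gzmk (-0.97), Ccl5 (-0.74) and Nkg7 (-0.73) in log2 folds. Another 4 were higher: Havcr2 (1.15), Gzmb (1.04), Prdm1 (0.98) and Ccl3 (0.54), of which Prdm1 encodes Blimp-1, a factor of effector Tregs, and Havcr2 the checkpoint receptor TIM-3. The list's median was -0.18 (all genes -0.0046). In the IFN-γ list 6 of 14 were higher, led by Irf8 (0.62), Cxcl10 (0.52) and Ciita (0.44), and the phosphatase gene Ptpn11 (-0.52) was lower. The median of this list was 0.039. The macrophage and monocyte markers given above were also higher in Foxp3+ than in conventional CD4 cells of each library. The part of this RNA in the values of all these lists was not tested. In the receptor list Il6st (0.34) and Stat3 (0.12) were higher and Il18rap (-0.38) and Il27ra (-0.18) lower, with a median of 0.017. Among the ligands, of which 4 were tested, Ebi3 (1.25), the subunit that IL-27 shares with the Treg cytokine IL-35, and Il18 (0.65) were higher, and the median was 0.80. Among the 11 transcription factors tested, Gata3 (0.39) was higher in Foxp3+ cells and Tcf7 (-0.67), Runx2 (-0.19) and Cbfb (-0.12), the partner subunit of the RUNX proteins, lower, with a median of -0.0028.

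In Foxp3+ cells 9 of 19 effector genes were higher in Cxcr3+ cells and 1 lower, beside 9.25% and 8.31% of all genes, with a median of 0.57 (all genes 0.0060); examples are Il2 (2.05), Nkg7 (1.89), Gzmk (1.87), Ccl5 (1.56) and Cxcr6 (1.41), and Prdm1 (-0.40) was the lower one. In conventional CD4 cells 11 were higher, beside 20.8% of all genes, and none of the rest passed as lower, with a median of 0.46 (all genes 0.011), among them Gzmk (1.04), Nkg7 (0.98), Cxcr6 (0.87) and Id2 (0.81). Eomes, the T-box relative of T-bet, was higher in Cxcr3+ cells of both gates (1.58 in Foxp3+ and 0.92 in conventional CD4 cells). Il23r, the IL-23 receptor chain that pairs with Il12rb1, was lower, with log2 folds of -0.98 in Foxp3+ and -1.18 in conventional CD4 cells. Il6st was lower as well, with log2 folds of -0.64 in Foxp3+ and -0.72 in conventional CD4 cells. In the IFN-γ list of 14, 2 genes were higher and 3 lower in Foxp3+ Cxcr3+ cells (median -0.097). In conventional ones 3 were higher and 4 lower (median 0.057), a share near the 39.7% of all genes called there. Socs3 was lower in Cxcr3+ cells of both gates (-0.47 in Foxp3+ and -0.71 in conventional CD4 cells). No ligand passed in either gate.

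In Cd8a+ Cd8b1+ cells 11 of 19 effector genes were higher and 2 lower than in conventional CD4 cells (median 0.37, all genes -0.020), beside 2.11% and 2.61% of all genes, led by Gzmb (2.34), Ccl4 (2.15), Ccl3 (1.85), Ccl5 (1.55) and Gzmk (1.53). Eomes (3.46) was higher and Zbtb7b (-0.76), which encodes the CD4 lineage factor ThPOK, lower. In Ifng+ conventional CD4 cells 17 of 19 effector genes were higher (median 0.53, all genes 0.0055), beside 16.6% of all genes, led by the chemokines Ccl4 (2.30) and Ccl3 (2.01) and by Gzmb (1.23). Of the IFN-γ targets, Cxcl10 (1.27) and Irf8 (0.67) were higher there and Socs3 (-0.61) lower, and Tcf7 (-0.65) and the Tec-family kinase gene Txk (-0.49) were lower. Macrophage and monocyte markers summed to 924, 909 and 1288 CPM in Ifng+ cells of the knockout libraries and 488 and 1011 CPM in those of the control libraries, against 546, 689 and 921 CPM and 400.3 and 845 CPM in Ifng- cells, and the part of this RNA in the chemokine values was not tested.

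The members' own patterns were compared over 25 sums, made from 5 disjoint sets of cells (Foxp3+ and conventional CD4 cells, each with and without Cxcr3, and the remaining Cd8a+ Cd8b1+ cells) in each library. The correlations are of log2(CPM + 1) and describe sums that share libraries and depth. Tbx21 ran with Il12rb2 (Pearson r = 0.88), Runx3 (0.83) and Ifng (0.80), and Ifng with Il12rb2 (0.85). Knockout library 2 had the highest Ifng and Il12rb2 of all libraries in each of the Foxp3+ and conventional CD4 sets. Its weight in these correlations was not tested. The 2 chains of the IL-12 receptor had an r of 0.05, and Ifngr2 and Runx3 one of -0.66. The Cd8a+ Cd8b1+ sums were small, from 15 cells in knockout library 3 to 93 in control library 1. In that of knockout library 2 Ifngr2 was at 0 CPM, beside the highest Runx3 of the 25 sums, 330 CPM. The weight of this sum in the correlations of Ifngr2 was not tested. Among 6421 genes with a mean of at least 20 CPM, those most like Tbx21 were Sorl1 (0.97), Cxcr6 (0.93), Sntb2 (0.93), St3gal6 (0.91) and Mbp (0.90). Those most like Ifng were Ptpn11 (0.85), Il12rb2, Cxcr6 (0.81), Tbx21 and Sorl1 (0.80). Runx3 was most like Dnajc15 (0.96), Nkg7 (0.96) and Gzmk (0.95). The gene nearest to Il12rb2 was the integrin gene Itgal (0.93), to Ifngr2 the macrophage-associated factor Irf5 (0.92), to Hopx Arpc2 (0.88), to Stat4 Tbl1xr1 (0.86), to Ifngr1 Sec11c (0.84) and to Il12rb1 Igbp1 (0.72).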

How the data were processed

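RNA of sorted kidney CD4 T cells was read by 10x Genomics 3′ sequencing in 3 knockout and 2 control libraries. The authors deposited raw UMI counts per gene and barcode, per the file headers the output of Cell Ranger 8.0.0; mm10, Cell Ranger 8.0 and Seurat 5.1.0 are named in the submitters' processing notes, and counting by strand is not given in the sources used here. Total counts per library ran from 31104939 to 152275841 UMIs. Cells with at least 500 genes and under 10% mitochondrial UMIs were kept. Counts were summed per library and gate (at least 1 UMI of the gating gene) and tested in edgeR 4.0.16 (R 4.3.3; TMM, filterByExpr, quasi-likelihood, Benjamini-Hochberg, threshold 0.05), with the library as a term between gates. DESeq2 1.42.0, other normalization, filters, thinning, T-restricted gates, removal of the 5% of cells richest in UMIs, a replicate block and leaving out each library were tried. The scripts were tested on simulated data. Shares of cells used cells thinned to 2000 UMIs, exact binomial intervals of 95% and two-sided exact permutation tests. Gene positions came from GRCm38 annotation. All 9 members were named in every comparison, from the other lists genes that passed or the 2 with the smallest p, or further ones chosen after their values were seen. A gene of the transcription factor list is not reported here. The members and lists were chosen with earlier results of these data known. No doublet caller was run, and no batch is given in the labels.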

Additional observations from a re-analysis of the deposited data

How the results depend on the processing

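Counts of genes called shifted with the test, with the filter on low counts and with thinning before gating, which also changed how many cells each gate held. In place of 0, knockout against control gave with DESeq2 116 in all cells, 51 in Foxp3+ cells, 57 in conventional CD4 cells, 39 in Cxcr3+ cells and 3 in Cd8a+ Cd8b1+ cells, and without the filter on low counts 6 in all cells, 452 in Foxp3+ cells, 191 in conventional CD4 cells, 281 in Cxcr3+ cells and 120 in Cd8a+ Cd8b1+ cells. With cells thinned to 2000 UMIs before gating it gave 9 in Foxp3+ cells, 1 in conventional CD4 cells and 2 in Cd8a+ Cd8b1+ cells. The replicate numbers are shared by both groups but nothing in the labels pairs them, and deviations of same-numbered libraries over all cells had r = 0.21 and 0.06. With a replicate block as pairing, 1 gene was called in conventional CD4 cells and 11 in Cd8a+ Cd8b1+ cells; the log2 fold of Hopx became 0.0062 in conventional CD4 cells and that of Ifngr2 became -0.24 in Cd8a+ Cd8b1+ cells. The interaction gave 21 with DESeq2, 297 without the filter, 26 with thinned cells, 2 in T-restricted gates and 2 without the 5% of cells richest in UMIs, in place of 7. The Cxcr3 split of Foxp3+ cells gave 1112 with DESeq2, 150 with thinned cells, 1068 in T-restricted gates and 1123 without the 5% of cells richest in UMIs, in place of 1939. The difference of the Cxcr3 splits gave 527 with DESeq2, 1090 without the filter, 2 with thinned cells and 94 without the 5% of cells richest in UMIs, in place of 329. Thinned cells gave 1444 in place of 2774 for Foxp3+ against conventional CD4 cells, 2304 in place of 5358 for the Cxcr3 split of conventional CD4 cells, 235 in place of 635 for Cd8a+ Cd8b1+ cells (and 1127 without the 5% richest) and 726 in place of 3946 for the Ifng split. The cause of these shifts was not tested. With 1 library left out at a time there were 0 calls in all cells, 0 to 33 calls in Foxp3+ cells, 0 calls in conventional CD4 cells, 0 to 1 calls in Cxcr3+ cells and 0 to 77 calls in Cd8a+ Cd8b1+ cells for knockout against control, with 33 without control library 2 in Foxp3+ and 77 without control library 2 in Cd8a+ Cd8b1+ cells. The same repeats gave 2 to 39 for the genotype by gate interaction, 1984 to 2812 for Foxp3+ against conventional CD4 cells, 3897 to 4995 for the Cxcr3 split of conventional CD4 cells, 1271 to 1665 for the Cxcr3 split of Foxp3+ cells, 511 to 606 for Cd8a+ Cd8b1+ against conventional CD4 cells, 2666 to 3453 for the Ifng split and 53 to 344 for the difference of the Cxcr3 splits. Of 1321 repeats of members' results, 63 changed sign, in 33 results of which none had passed. These log2 folds were Hopx 0.041 (thinned cells) in all cells, Il12rb1 -0.27 (thinned cells) and Hopx 0.041 (no richest 5%) in Foxp3+ cells, Ifngr2 -0.16 (thinned cells) and Ifngr2 -0.13 (T-restricted gates) in Cxcr3+ cells, Ifngr2 -0.40 (T-restricted gates) and Ifngr2 -0.40 (no richest 5%) in Cd8a+ Cd8b1+ cells, Hopx 0.063 (no richest 5%) in the genotype by gate interaction, Hopx -0.013 (no filter) and Hopx -0.052 (thinned cells) in Foxp3+ against conventional CD4 cells, Stat4 0.065 (T-restricted gates) in the Cxcr3 split of Foxp3+ cells, Ifngr1 0.012 (DESeq2), Ifngr1 0.011 (RLE factors), Il12rb2 0.11 (thinned cells), Hopx -0.016 (thinned cells), Il12rb1 -0.024 (T-restricted gates), Il12rb2 0.024 (no richest 5%), Stat4 0.022 (no richest 5%) and Ifngr1 0.035 (no richest 5%) in Cd8a+ Cd8b1+ against conventional CD4 cells, Ifngr1 0.023 (thinned cells) and Ifngr1 0.020 (no richest 5%) in the Ifng split, and Stat4 -0.048 (thinned cells) and Ifngr1 0.16 (thinned cells) in the difference of the Cxcr3 splits. Ranges that crossed 0 when a library was left out were Stat4 -0.030 to 0.26, Ifngr2 -0.55 to 0.11 and Hopx -0.33 to 0.32 in all cells, Ifngr2 -0.27 to 0.0013 and Hopx -0.29 to 0.29 in Foxp3+ cells, Stat4 -0.041 to 0.26, Ifngr2 -0.54 to 0.22 and Hopx -0.28 to 0.34 in conventional CD4 cells, Tbx21 -0.0041 to 0.084, Stat4 -0.069 to 0.23, Ifngr2 -0.22 to 0.53, Hopx -0.38 to 0.17 and Runx3 -0.011 to 0.12 in Cxcr3+ cells, Il12rb2 -0.49 to 0.33, Ifngr2 -0.53 to 0.44 and Hopx -0.29 to 0.023 in Cd8a+ Cd8b1+ cells, Ifngr2 -0.26 to 0.36 and Hopx -0.11 to 0.054 in the genotype by gate interaction, Hopx -0.019 to 0.065 in Foxp3+ against conventional CD4 cells, Il12rb1 -0.28 to 0.048, Ifngr1 -0.049 to 0.083 and Hopx -0.053 to 0.11 in the Cxcr3 split of Foxp3+ cells, and Ifng -0.44 to 0.042, Il12rb1 -0.041 to 0.083, Il12rb2 -0.40 to 0.11 and Ifngr1 -0.032 to 0.020 in Cd8a+ Cd8b1+ against conventional CD4 cells. The group differences in shares of cells with Tbx21, Ifng or Il12rb2 kept their direction in the alternatives run, though not always their lack of overlap. Of the other members, Runx3 and Il12rb1 in conventional CD4 cells and Hopx and Il12rb1 in Foxp3+ cells changed sign in some. Runx3 went from 3.47 to -1.47 percentage points without thinning, and Hopx from -0.82 to 3.18 at 1000 UMIs per cell. On simulated counts the Foxp3+ comparison recovered 30% of genes changed 1.5-fold and 60% of those changed 2-fold, so differences of this size could be missed in this design. Of the 150 genes called there, 17 had not been changed, a larger share than the threshold of 0.05 aims at. Such false calls were 20 of 179 for Foxp3+ against conventional CD4 cells and 20 of 165 for Cd8a+ Cd8b1+ cells. They were 19 of 191 for the Ifng split. For the Cxcr3 splits they were 11 of 179 in conventional CD4 and 10 of 173 in Foxp3+ cells. The interaction had 17 of 156 and the difference of the Cxcr3 splits 6 of 147.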
